A study of Homo sapiens with 5 samples.

Results

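Cadherins and protocadherins were examined as a family in the gene expression table of the series. Genes whose symbol is CDH followed by a number, or PCDH followed by a number or capital letter, were taken, and symbols that hold a hyphen or end in P were left out. Of 57905 genes in the table, 98 had such a symbol and 92 remained. They comprised 5 type I classical cadherins, 13 type II classical cadherins, 5 atypical cadherins, 14 non-clustered protocadherins and 55 clustered protocadherins (14 alpha, 18 beta, 18 gamma and 5 C-type members). GENCODE 29 lists 4 of them as pseudogenes (PCDH8P1, PCDHA14, PCDHB17 and PCDHB18).

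Cadherins are calcium-dependent adhesion proteins of the cell surface. Classical cadherins bind the same or a related cadherin on the neighbouring cell and are tied to actin through beta-catenin, p120-catenin and alpha-catenin. E-cadherin (CDH1) is the main cadherin of epithelia, and N-cadherin (CDH2) that of neural and mesenchymal cells. Type II cadherins are used mostly in the nervous system, in mesenchyme and in endothelium. Clustered protocadherins lie side by side on chromosome 5. Each alpha and gamma member has a promoter and variable exon of its own and is spliced to constant exons that its cluster shares, whereas beta genes have a single exon. Neurons use a few variable members and most or all C-type members, which gives cells distinct surface identities.

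RNA of 5 human cell lines was sequenced, each line as 1 library. MCC13, WaGa, MKL-1 and MKL-2 are labelled Merkel cell carcinoma, a neuroendocrine skin cancer, and REH carries the label of a pre-B-cell acute lymphoblastic leukemia. All 5 carry the genotype label WT and were grown in RPMI medium with fetal bovine serum, without a treatment named in the labels. Levels were deposited as TPM, a transcript abundance corrected for transcript length and set to a common total in each library, which permits comparison between genes but keeps no read depth. The effect of a line and that of its library cannot be told apart, since no line had a replicate. Every p below is set against the spread between Merkel cell carcinoma lines.

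Marker genes were checked against these labels. Of 11 Merkel cell markers, at least 10 reached 1 TPM in WaGa, MKL-1 and MKL-2. In MCC13 only 3 of 11 did, and ATOH1, INSM1, ISL1, KRT20 and NEUROD1 were listed at 0 there. The 3 were KRT8 at 313 TPM, KRT18 at 229 TPM and SYP at 3.23 TPM. In WaGa, MKL-1 and MKL-2, KRT8 stood at 974, 374 and 795 TPM and KRT18 at 185, 86.4 and 239 TPM. Most markers of the label were thus absent or low in MCC13, while KRT8 and KRT18 were high. The 8 mesenchymal markers summed to 6513 TPM in MCC13, against 20.4, 252 and 8.78 TPM in WaGa, MKL-1 and MKL-2 and 793 TPM in REH. VIM alone gave 724 TPM of the sum in REH, and SPARC alone 240 TPM of that in MKL-1. Early B cell markers summed to 6224 TPM in REH and to between 2.75 and 208 TPM in the 4 Merkel cell carcinoma lines. Among them, PAX5 stood at 38.4, 91.9 and 75.0 TPM and EBF1 at 55.5, 64.6 and 52.7 TPM in WaGa, MKL-1 and MKL-2. Between 15949 and 16921 genes reached 1 TPM per library. In RNA from a whole culture, fewer cells of a type and less RNA per cell cannot be told apart.

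Promoters of the clustered genes are shown first because the promoter chosen decides which member a cell transcribes. A RefSeq promoter (250 bases before to 50 bases after the start, build GRCh38.p14) was found for 69 of the 92 members, 46 of them clustered. The letters CGCT are the known core of a conserved element of most of these promoters. They stood on the sense strand between 100 and 30 bases before the start in 42 of 46 clustered promoters (91.3%). A match of these letters alone does not show that the element is present. The same window held CGCT in 7 of 23 promoters of members outside the clusters (30.4%) and in 21.6% of all 35116 promoters of the table. The following 30-base windows on chromosome 5, plus strand, belong to 12 clustered members, with CGCT in capitals. Their levels are given below, except that of PCDHGA10. PCDHA3, PCDHB5 and PCDHGB2, whose levels are also given below, had no such window to show.

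PCDHA1 (chr5:140786092-140786121): cacatgatgtCGCTgtacaccacaaagtct
PCDHA2 (chr5:140794787-140794816): cacatgatgtCGCTgtccaccatagagtgt
PCDHAC1 (chr5:140926226-140926255): aaggtgtggtCGCTcacgttcaccgtcccg
PCDHB2 (chr5:141094550-141094579): cgcggggtggCGCTgcagccttagaagtag
PCDHB14 (chr5:141223269-141223298): cacatggtggCGCTacaggataagacgaaa
PCDHGA3 (chr5:141343773-141343802): ctcttagtgtCGCTgttgaccactcaagaa
PCDHGB4 (chr5:141387623-141387652): ctctgggcgcCGCTgttggccaaagtggag
PCDHGB6 (chr5:141407930-141407959): ctctgggcgcCGCTgtcggccagtgcagag
PCDHGA10 (chr5:141412937-141412966): ctctgagcgcCGCTgttcacctactaggag
PCDHGA11 (chr5:141420978-141421007): ctctaggcgcCGCTgctcaccaatcaggga
PCDHGC3 (chr5:141475886-141475915): ctctgtgtgcCGCTgtcggccaatgaagac
PCDHGC4 (chr5:141484958-141484987): gcccgggagcCGCTgtctgccaatcgggtg

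The bases around CGCT differed by cluster. TGTCGCT, searched on both strands of the whole promoter, stood in 10 of 11 alpha promoters and in 1.76% of all promoters. GGTGGCGCT stood in 13 of 14 beta promoters and in 0.501% of all, and GCCGCTGT in 8 of 17 gamma promoters and in 1.63% of all. All 3 contain CGCT and so overlap it, and they were picked after the promoter sequences had been seen. In the printed windows PCDHGB4 and PCDHGB6 share the bases up to and including CGCTGT, and their levels are given below. A match describes letters and shows no binding.

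Of the 92 members, 72 reached 1 TPM in at least 1 of the 5 lines and 20 in none. CDH9 and CDH17 were listed at 0 in all 5 lines. CDH24 and PCDH9 alone reached 1 TPM in all 5 lines, and 11 members did so in a single line. The number of members at 1 TPM or more was 16 in MCC13, 49 in WaGa, 43 in MKL-1, 59 in MKL-2 and 21 in REH. Over all 92 members the summed level was 451 TPM in MCC13, 720 TPM in WaGa, 1014 TPM in MKL-2, 668 TPM in MKL-1 and 336 TPM in REH. MCC13 and REH thus had the fewest members at this level and the lowest sums.

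**Figure D1:**
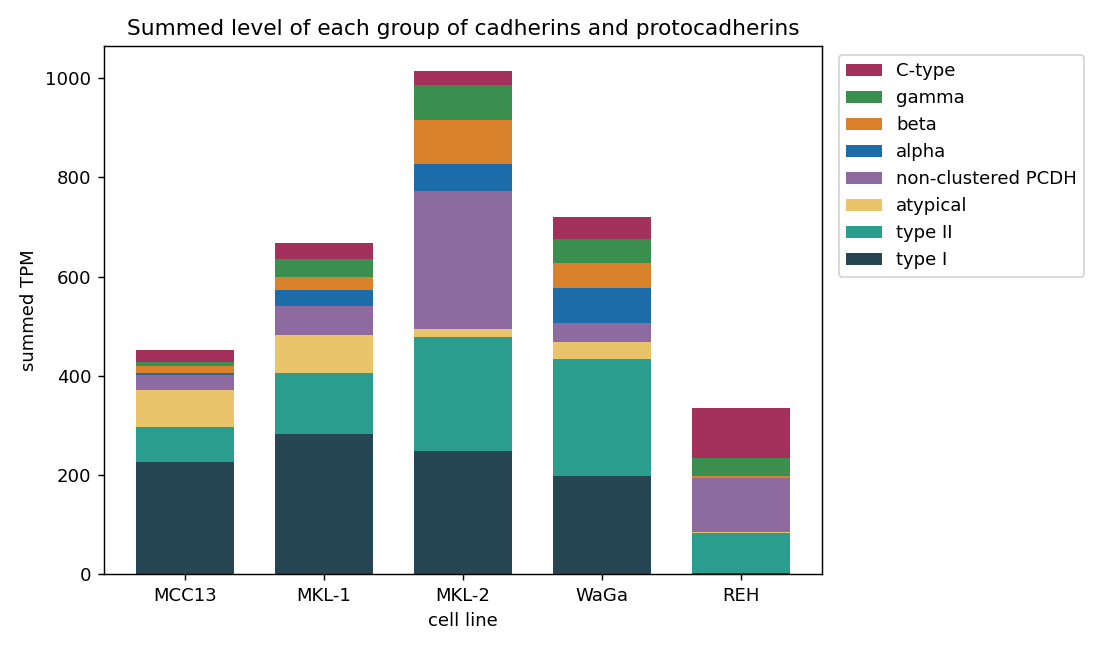
Summed TPM (vertical axis) of the 8 groups of members, stacked, in each of the 5 cell lines (1 library each). The type I layer reaches 199 to 282 TPM in the 4 Merkel cell carcinoma lines and 1.59 TPM in REH, and the alpha layer is 2.27 TPM in MCC13 and 0.0935 TPM in REH.

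Type I cadherins were carried by N-cadherin in all 4 Merkel cell carcinoma lines. CDH2 (ENSG00000170558, chromosome 18) stood at 225 TPM in MCC13, 117 TPM in WaGa, 175 TPM in MKL-2 and 200.2 TPM in MKL-1 and was listed at 0 in REH. CDH2 supplied 99.8% of the type I sum in MCC13, against 58.9%, 71.0% and 70.7% in WaGa, MKL-1 and MKL-2. The 4 lines lay above REH without overlap, as in 27.0% of all genes tested. The level in MCC13 was the highest of the 4.

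E-cadherin and P-cadherin were low in MCC13. CDH1 (ENSG00000039068, chromosome 16) stood at 0.134 TPM in MCC13, against 9.68, 10.9 and 7.96 TPM in WaGa, MKL-1 and MKL-2 and 0.0275 TPM in REH. P-cadherin, CDH3 (ENSG00000062038, chromosome 16), a cadherin of basal epithelial layers, stood at 0.231 TPM in MCC13, against 67.8, 62.3 and 27.5 TPM in WaGa, MKL-1 and MKL-2 and 1.27 TPM in REH. Neither gene's MCC13 value overlapped those of the other 3 Merkel cell carcinoma lines, which expressed E-, P- and N-cadherin together. MCC13 lay below all 3 in 43.4% of all genes tested. The ratio of CDH2 to CDH1 in TPM was 1682 in MCC13, against 12.1, 18.4 and 22.0 in WaGa, MKL-1 and MKL-2. In MCC13 it rests on the CDH1 value of 0.134 TPM in 1 library of unknown depth, so its size is uncertain. The 6 keratinocyte markers summed to 18.4 TPM in MCC13, against 18.3, 12.9 and 8.90 TPM in WaGa, MKL-1 and MKL-2 and 5.71 TPM in REH.

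The other type I members were low in most lines. R-cadherin, CDH4, a cadherin of retina and brain, stood at 0.0684 TPM in MCC13, 1.95 TPM in WaGa, 35.7 TPM in MKL-2, 1.28 TPM in MKL-1 and 0.169 TPM in REH. M-cadherin, CDH15, known from muscle, stood at 0.0778 TPM in MCC13, 2.26 TPM in WaGa, 1.3 TPM in MKL-2, 7.44 TPM in MKL-1 and 0.122 TPM in REH. High values were thus seen in MKL-2 for CDH4 and in MKL-1 for CDH15.

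**Figure D2:**
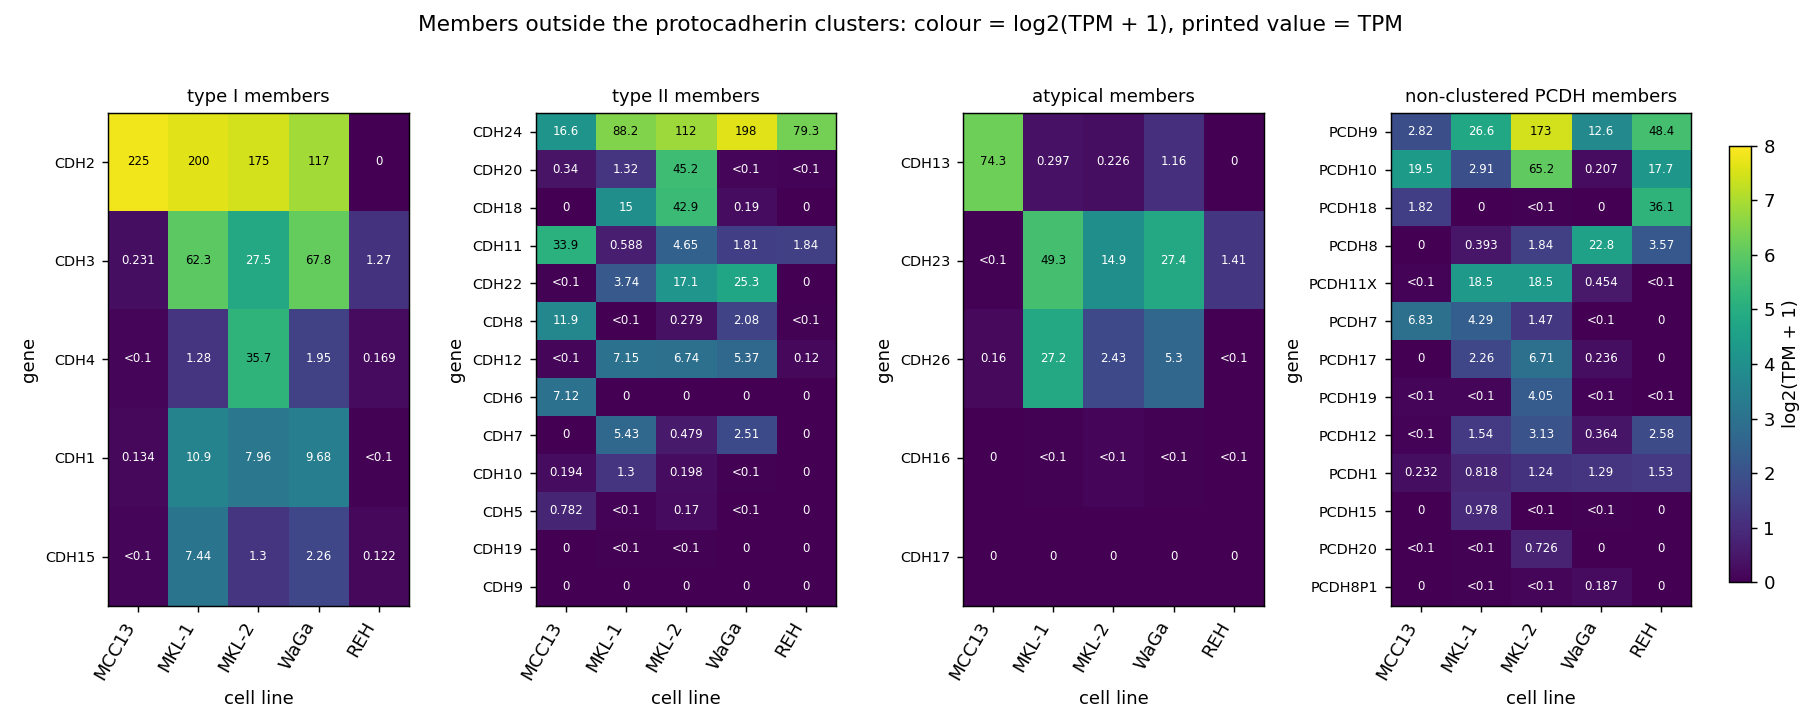
TPM of the members outside the protocadherin clusters (rows, 4 panels by group) in the 5 lines (columns). Colour gives log2(TPM + 1) and the printed figure TPM, and PCDH11Y, which is Y-linked, is left out. CDH2 is high in all 4 Merkel cell carcinoma lines, CDH13, CDH11, CDH8 and CDH6 are highest in MCC13, and CDH3, CDH1, CDH23 and CDH12 are low in MCC13.

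Among type II cadherins, CDH24, a catenin-binding member, was the most abundant in 4 of the 5 lines. It stood at 16.6 TPM in MCC13, 198 TPM in WaGa, 112 TPM in MKL-2, 88.2 TPM in MKL-1 and 79.3 TPM in REH. In REH it made up 97.5% of the type II sum, and in MCC13 cadherin-11 took its place. Osteoblast cadherin, CDH11, known from mesenchyme and bone, stood at 33.9 TPM in MCC13, against 1.81, 0.588 and 4.65 TPM in WaGa, MKL-1 and MKL-2 and 1.84 TPM in REH.

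A further pair of type II genes was highest in MCC13. K-cadherin, CDH6 (ENSG00000113361, chromosome 5), of kidney and neural crest, stood at 7.12 TPM in MCC13 and was listed at 0 in the other 4 lines. CDH8, a cadherin of the brain, stood at 11.9 TPM in MCC13, against 2.08, 0.000348 and 0.279 TPM in WaGa, MKL-1 and MKL-2 and 0.0380 TPM in REH. MCC13 lay above the other 3 Merkel cell carcinoma lines for CDH6, CDH8 and CDH11, as it did for 27.7% of all genes tested.

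Several brain-type members of the type II group showed the opposite order. CDH12 (ENSG00000154162, chromosome 5), N-cadherin 2, stood at 0.0763 TPM in MCC13, against 5.37, 7.15 and 6.74 TPM in WaGa, MKL-1 and MKL-2 and 0.120 TPM in REH. CDH22 stood at 0.0400 TPM in MCC13, against 25.3, 3.74 and 17.1 TPM in WaGa, MKL-1 and MKL-2, and was listed at 0 in REH. For both genes the MCC13 value was under those of WaGa, MKL-1 and MKL-2 without overlap, as for 43.4% of all genes tested. CDH7 was listed at 0 in MCC13, against 2.51, 5.43 and 0.479 TPM in WaGa, MKL-1 and MKL-2, and was listed at 0 in REH.

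Others were mostly seen in MKL-2. CDH20 stood at 0.340 TPM in MCC13, 0.0992 TPM in WaGa, 45.2 TPM in MKL-2, 1.32 TPM in MKL-1 and 0.0489 TPM in REH. CDH18 was listed at 0 in MCC13, stood at 0.190 TPM in WaGa, 42.9 TPM in MKL-2 and 15.0 TPM in MKL-1, and was listed at 0 in REH. Both genes were highest in MKL-2. The endothelial cadherin CDH5 reached at most 0.782 TPM (MCC13), and CDH19 and CDH9 stayed below 1 TPM in every line. CDH10 passed 1 TPM in MKL-1 alone, at 1.3 TPM.

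Of the atypical cadherins, T-cadherin and cadherin-23 changed places between MCC13 and the other 3 lines. CDH13 (ENSG00000140945, chromosome 16), a cadherin anchored by a lipid and lacking a cytoplasmic tail, stood at 74.3 TPM in MCC13, against 1.16, 0.297 and 0.226 TPM in WaGa, MKL-1 and MKL-2, and was listed at 0 in REH. CDH23, a component of the tip links of hair cells, stood at 0.0222 TPM in MCC13, against 27.4, 49.3 and 14.9 TPM in WaGa, MKL-1 and MKL-2 and 1.41 TPM in REH. The atypical sums were of one size in MCC13 and MKL-1 (74.5 and 76.8 TPM), yet CDH13 gave 99.8% of it in MCC13 and CDH23 gave 64.1% in MKL-1. CDH26 stood at 0.160 TPM in MCC13, against 5.30, 27.2 and 2.43 TPM in WaGa, MKL-1 and MKL-2 and 0.0199 TPM in REH. The kidney and gut cadherins CDH16 and CDH17 did not reach 1 TPM in any line.

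Non-clustered protocadherins, which act in adhesion and axon guidance in the brain, were highest in MKL-2. Their sum was 31.4 TPM in MCC13, 38.4 TPM in WaGa, 277 TPM in MKL-2, 59.4 TPM in MKL-1 and 110 TPM in REH. PCDH9 stood at 2.82 TPM in MCC13, 12.6 TPM in WaGa, 173 TPM in MKL-2, 26.6 TPM in MKL-1 and 48.4 TPM in REH. PCDH10 stood at 19.5 TPM in MCC13, 0.207 TPM in WaGa, 65.2 TPM in MKL-2, 2.91 TPM in MKL-1 and 17.7 TPM in REH. These genes did not follow the tumour type, since REH lay within the range of the 4 Merkel cell carcinoma lines for both.

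PCDH9 was the highest member of this group in REH, followed by PCDH18. PCDH18 (ENSG00000189184, chromosome 4) stood at 1.82 TPM in MCC13 and 0.0302 TPM in MKL-2, was listed at 0 in WaGa and in MKL-1, and reached 36.1 TPM in REH. PCDH8, a brain protocadherin, was listed at 0 in MCC13 and stood at 22.8 TPM in WaGa, 1.84 TPM in MKL-2, 0.393 TPM in MKL-1 and 3.57 TPM in REH. WaGa therefore held the highest PCDH8 value and REH the highest PCDH18 value. PCDH7 stood at 6.83 TPM in MCC13, 0.0166 TPM in WaGa, 1.47 TPM in MKL-2 and 4.29 TPM in MKL-1 and was listed at 0 in REH. PCDH17 was listed at 0 in MCC13 and REH and stood at 0.236, 2.26 and 6.71 TPM in WaGa, MKL-1 and MKL-2.

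PCDH11X stood at 0.0555 TPM in MCC13, 0.454 TPM in WaGa, 18.5 TPM in MKL-2, 18.5 TPM in MKL-1 and 0.00585 TPM in REH. It has a near-identical copy on the Y chromosome, whose level is not given, and reads of the copies may have been split, so its level is uncertain. PCDH19 passed 1 TPM in MKL-2 alone, at 4.05 TPM.

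Clustered protocadherins differed in number and level between the lines. The number of clustered members at 1 TPM or more was 6 of 55 in MCC13, 32 in WaGa, 23 in MKL-1, 37 in MKL-2 and 11 in REH. Their sum was 48.7 TPM in MCC13, 214 TPM in WaGa, 242 TPM in MKL-2, 127 TPM in MKL-1 and 142 TPM in REH. Without PCDHGC3 the sum was 26.8 TPM in MCC13, against 191, 111 and 242 TPM in WaGa, MKL-1 and MKL-2 and 40.0 TPM in REH. Levels of single alpha and gamma members carry a limit of their own. In the GENCODE 29 transcripts, the constant 3′ end covers 45.6% to 54.9% of the length of 14 alpha transcripts and 45.7% to 47.7% of that of 20 gamma transcripts. Reads from this shared part do not name a member, so their assignment, and with it each member's level, is uncertain.

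**Figure D3:**
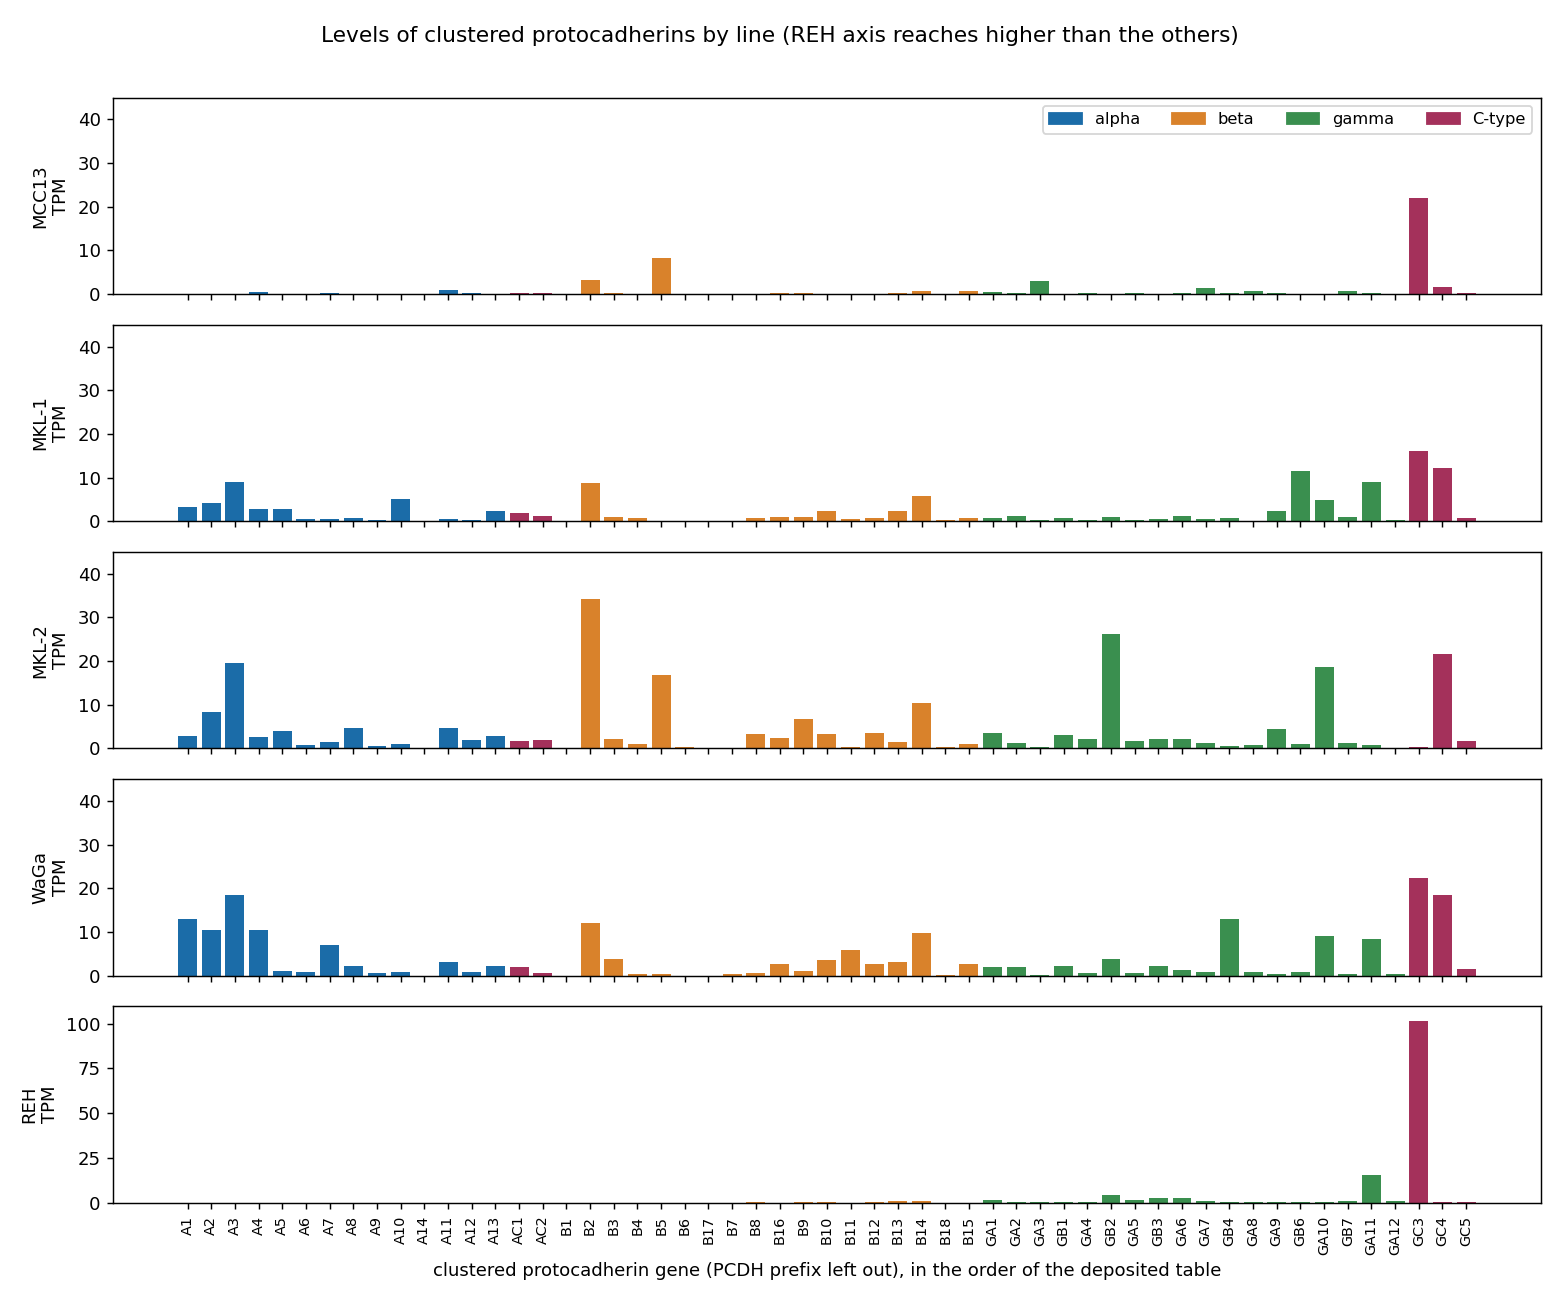
TPM (vertical axis) of the 55 clustered protocadherins, in table order, coloured by cluster, with 1 panel per line. The axis ends at 45 TPM in 4 panels and above 100 TPM in REH, where PCDHGC3 stands at 102 TPM and alpha members reach at most 0.0254 TPM.

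The alpha cluster was the part that MCC13 and REH lacked most. Its 14 members summed to 2.27 TPM in MCC13, against 70.9, 32.4 and 55.8 TPM in WaGa, MKL-1 and MKL-2 and 0.0935 TPM in REH. PCDHA3, the highest alpha member in WaGa, MKL-1 and MKL-2, stood at 0.0257 TPM in MCC13, against 18.5, 9.02 and 19.7 TPM in those lines, and was listed at 0 in REH. PCDHA1 stood at 0.0631 TPM in MCC13, against 12.9, 3.32 and 2.90 TPM in WaGa, MKL-1 and MKL-2 and 0.0198 TPM in REH. PCDHA2 stood at 0.0243 TPM in MCC13, against 10.5, 4.18 and 8.43 TPM in the same lines, and was listed at 0 in REH. None of the 14 reached 1 TPM in MCC13 or REH.

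In the beta cluster, PCDHB2 led in WaGa, MKL-1 and MKL-2. It stood at 3.27 TPM in MCC13, against 12.1, 8.79 and 34.2 TPM in WaGa, MKL-1 and MKL-2, and was listed at 0 in REH. PCDHB14 stood at 0.726 TPM in MCC13, against 9.67, 5.90 and 10.5 TPM in WaGa, MKL-1 and MKL-2 and 1.04 TPM in REH. PCDHB5 differed in that it was seen in MCC13 and MKL-2, at 8.27 TPM in MCC13, 0.335 TPM in WaGa, 16.8 TPM in MKL-2, 0.171 TPM in MKL-1 and 0.00217 TPM in REH. The beta sum was 14.1 TPM in MCC13, against 49.1, 25.9 and 87.9 TPM in WaGa, MKL-1 and MKL-2 and 3.88 TPM in REH.

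Among gamma members, with the C-type members of the cluster left apart, a different one led in each line. The 18 gamma members summed to 8.16 TPM in MCC13, against 48.6, 36.7 and 71.3 TPM in WaGa, MKL-1 and MKL-2 and 35.2 TPM in REH, so REH lay near MKL-1 and MCC13 was lowest. PCDHGA3 (ENSG00000254245) led in MCC13 at 3.03 TPM, against 0.219, 0.252 and 0.230 TPM in WaGa, MKL-1 and MKL-2 and 0.312 TPM in REH. PCDHGB6 led in MKL-1 at 11.5 TPM, with 0.0139 TPM in MCC13, 0.915 TPM in MKL-2, 0.849 TPM in WaGa and 0.337 TPM in REH. PCDHGB2 led in MKL-2 at 26.2 TPM, with 0.0818 TPM in MCC13, 3.80 TPM in WaGa, 1.09 TPM in MKL-1 and 4.59 TPM in REH. The part of the promoter letters in the levels of PCDHGB6 and PCDHGB4 was not tested. PCDHGB4 led in WaGa at 13.0 TPM, with 0.328 TPM in MCC13, 0.473 TPM in MKL-2, 0.689 TPM in MKL-1 and 0.453 TPM in REH. PCDHGA11 led in REH at 15.7 TPM, with 0.146 TPM in MCC13, 8.48 TPM in WaGa, 0.823 TPM in MKL-2 and 8.95 TPM in MKL-1. Each leading member was a single library's value. With the C-type members of the cluster counted, PCDHGC3 led in every line but MKL-2. The cluster then summed to 32.0 TPM in MCC13, against 91.0, 65.6 and 94.9 TPM in WaGa, MKL-1 and MKL-2 and 138 TPM in REH.

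C-type members, which are the part of the clusters that neurons use most widely, showed a contrast between PCDHGC3 and PCDHGC4. PCDHGC3 (ENSG00000240184) stood at 22.0 TPM in MCC13, 22.3 TPM in WaGa, 0.274 TPM in MKL-2, 16.1 TPM in MKL-1 and 102 TPM in REH. It made up 45.1% of the clustered sum in MCC13 and 71.8% in REH. PCDHGC4 stood at 1.72 TPM in MCC13, against 18.6, 12.1 and 21.7 TPM in WaGa, MKL-1 and MKL-2 and 0.387 TPM in REH. MKL-2 thus had the highest PCDHGC4 value with the lowest PCDHGC3 value, and REH the reverse. PCDHAC1 stood at 0.227 TPM in MCC13, against 1.94, 1.89 and 1.77 TPM in WaGa, MKL-1 and MKL-2 and 0.0417 TPM in REH. PCDHAC2 and PCDHGC5 reached at most 2.02 and 1.61 TPM.

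The comparison of the 4 Merkel cell carcinoma lines with REH was made on the scale log2(TPM + 1), which understates the change of low genes. Of the 72 members at 1 TPM or more in some line, 1 was higher and 1 was lower in the Merkel cell carcinoma lines (limma, adjusted p under 0.05, 2-sided), beside 1.09% higher and 4.15% lower (5.24% in all) of the 22250 genes tested. At an unadjusted p under 0.05 there were 3 members, beside 18.6% of genes. CDH2 rose by 7.45 ± 0.44 (SE; limma, adjusted p = 0.00572), higher in 4 of 4 lines. PCDH18 fell by 4.83 ± 0.76 (limma, adjusted p = 0.0422), lower in 4 of 4 lines. In all, 2 of the 72 members were called, a share below the 5.24% of all genes tested. CDH2 was among 51 tested members that reached 1 TPM in Merkel cell carcinoma lines alone, so they were tested only because they were high there, and the counts and medians that follow describe the tested members and are no support for a direction. In 57 of the 72 the difference was positive, beside 12564 of the 22250 genes, with a median of 1.02 against 0.18 over all genes. Quantile normalization moved the median of all genes to 0.03 and that of the members to 0.81. The gamma median was 0.17, and -0.04 after quantile normalization.

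Members for which all 4 lines lay on one side of REH were counted as well. All 4 lay above REH in 27 of 72 (37.5%, beside 27.0% of all genes tested) and below REH in 6 of 72 (8.33%, beside 25.6%). The count above was 9 of 11 tested alpha members and 0 of 16 tested gamma members. PCDHGC3 had a difference of -3.31 ± 1.87 (limma, adjusted p = 0.466) and did not pass. With REH as the lone library, the smallest exact permutation p of this design is 0.2. The fit takes the spread of the 4 Merkel cell carcinoma lines as that of REH too.

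Neither member passed without WaGa, without MKL-1 or without MKL-2, although the differences hardly moved, at 7.39 to 7.64 for CDH2 and -4.72 to -4.70 for PCDH18. Without MCC13, 8 members were higher and 1 was lower (limma, adjusted p under 0.05), beside 4.89% higher and 8.42% lower of 21247 genes. CDH2 rose by 7.33 (limma, adjusted p = 0.00894) and PCDH18 fell by 5.20 (limma, adjusted p = 0.00885) in that fit. CDH1 was higher by 3.34 ± 0.41 (limma, adjusted p = 0.0288), and CDH3 by 4.45 ± 0.67 (limma, adjusted p = 0.0425). CDH12, PCDHGC4, PCDHAC1, PCDHA13 and PCDHA3 rose too, by 1.46 to 3.99 (limma, adjusted p from 0.0354 to 0.0457). CDH24 was -0.06 ± 1.38 with MCC13 and 0.65 ± 0.56 without it (limma, adjusted p = 0.987 and 0.492), a reversal of sign. Of the members called higher without MCC13, CDH3 alone reached 1 TPM in REH, and the others carry the same limit of the filter.

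MCC13 was compared with WaGa, MKL-1 and MKL-2. Of the 72 tested members, 4 were higher and 3 were lower in MCC13 (limma, adjusted p under 0.05), beside 6.47% higher and 2.47% lower (8.95% in all) of 20698 genes. At an unadjusted p under 0.05 there were 22 members, beside 26.6% of genes. CDH13, the only called member at 1 TPM or more both in MCC13 and in some other line of the comparison, rose by 5.64 ± 0.52 (limma, adjusted p = 0.0190). The other 3 higher members were CDH6, PCDHGA3 and PCDH18, with differences of 3.02, 1.71 and 1.48. They reached 1 TPM in MCC13 alone, so the filter let them in only through the library where they were high, and their calls are no support for a difference. Of the 1466 genes in that position 77.4% were called, beside 3.25% of the 14483 genes at 1 TPM or more on both sides. CDH3 fell by 5.34 ± 0.68 (limma, adjusted p = 0.0388), CDH1 fell by 3.20 ± 0.41 (limma, adjusted p = 0.0380) and CDH12 fell by 2.78 ± 0.38 (limma, adjusted p = 0.0442). These 3 reached 1 TPM in the other lines alone, as did 56 tested members in all, and 5.2% of the 4749 genes in that position were called. CDH2 did not pass, with a difference of 0.49 ± 0.40 (limma, adjusted p = 0.497).

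**Figure D4:**
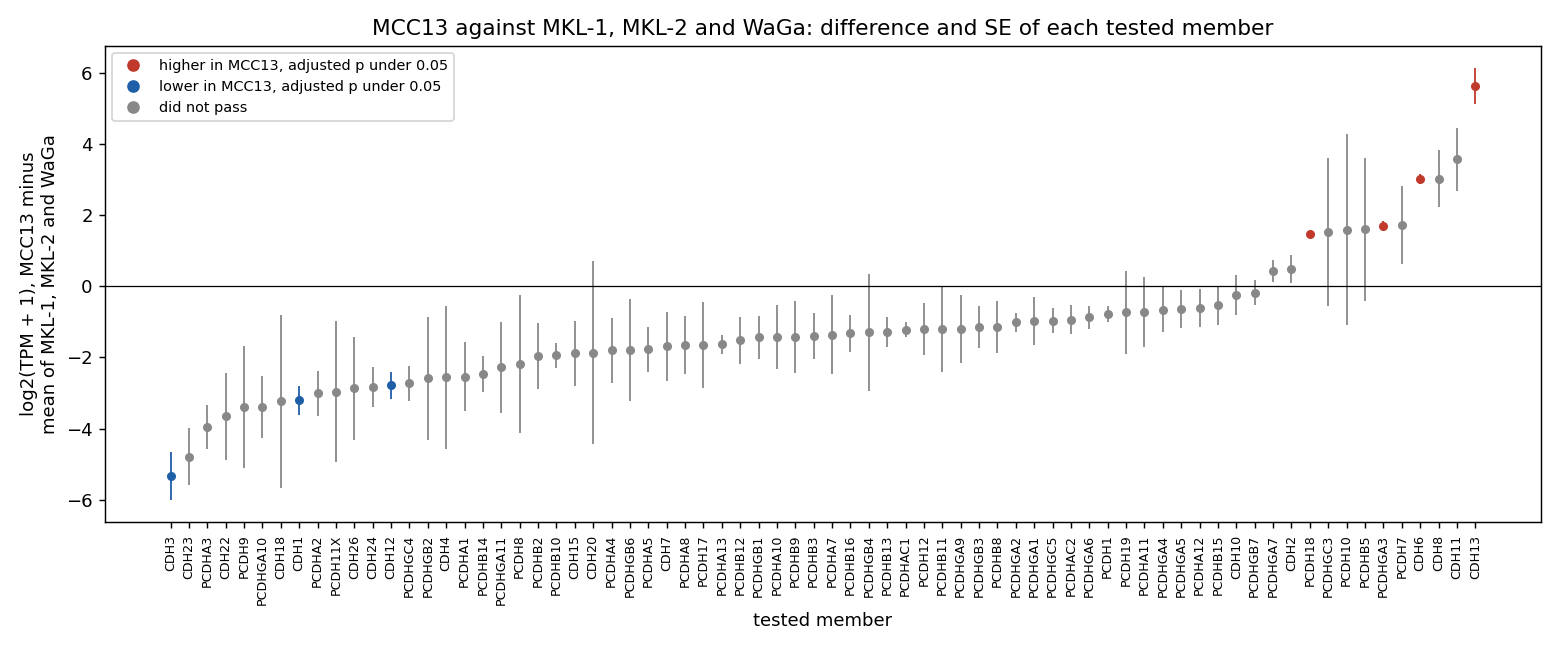
Difference in log2(TPM + 1), MCC13 minus the mean of WaGa, MKL-1 and MKL-2, with its SE (vertical axis), for the 72 tested members sorted by size. Red points are the 4 members higher in MCC13, 3 of them at 1 TPM or more in MCC13 alone, and blue points the 3 lower at adjusted p under 0.05 (limma). Of the 72 points 60 lie below 0, beside 60.6% of all genes tested.

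Among clustered protocadherins PCDHGA3 alone passed, and it was higher in MCC13. The counts and medians of tested members carry the limit of the filter just given. Of 44 tested clustered members 40 had a negative difference, beside 60.6% of all genes tested, with a median of -1.31 against -0.30 over all genes. After quantile normalization 39 of 44 were negative, beside 11363 of 20698 genes, with a median of -1.10 against -0.13. MCC13 lay below all 3 other lines in 38 of the 44 (86.4%), and over the 72 tested members in 55 (76.4%), beside 43.4% of all genes tested. It lay above them in 9 of 72 (12.5%), beside 27.7%. With the 20 members that did not reach 1 TPM counted too, MCC13 lay below in 66 of 92, beside 20.8% of all 57905 genes, silent ones included. The sum of the mesenchymal markers was higher and most Merkel cell markers were lower in the same library, as given above. Their part in these differences was not tested.

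Several large differences did not pass. The difference was -4.79 ± 0.81 for CDH23 (limma, adjusted p = 0.0667), -3.96 ± 0.63 for PCDHA3 (limma, adjusted p = 0.0600) and -2.73 ± 0.49 for PCDHGC4 (limma, adjusted p = 0.0760). It was 3.57 ± 0.90 for CDH11 (limma, adjusted p = 0.126) and 3.03 ± 0.80 for CDH8 (limma, adjusted p = 0.136). No member passed without WaGa, without MKL-1 or without MKL-2, and the smallest exact permutation p of 1 line against 3 is 0.25. The fit takes the spread of WaGa, MKL-1 and MKL-2 as that of MCC13 too.

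WaGa, MKL-1 and MKL-2 were each compared with the other 3 Merkel cell carcinoma lines, and 0 members passed in each (limma, adjusted p under 0.05), beside 0.0% of 20698 genes. At an unadjusted p under 0.05 there were 2 members for MKL-1 (beside 1.43% of genes), 8 for MKL-2 (beside 3.08%) and 4 for WaGa (beside 2.26%). For MKL-2 these included CDH20 at 4.94 ± 0.84 (limma, adjusted p = 0.843), CDH4 at 4.25 ± 0.96 (limma, adjusted p = 0.9997) and PCDHGC3 at -4.04 ± 0.73 (limma, adjusted p = 0.877). The pair for MKL-1 was PCDHGB6 and PCDHA10, and for WaGa PCDHGB4, PCDHB11, PCDH8 and PCDHA7.

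MKL-2 held the highest value of the 5 lines for 30 of the 72 tested members (41.7%, beside 17.2% of 22250 genes). WaGa did for 18 (25.0%, beside 17.2%), MKL-1 for 10 (13.9%, beside 20.1%), MCC13 for 8 (11.1%, beside 19.9%) and REH for 6 (8.33%, beside 25.6%). Among the 44 tested clustered members MKL-2 was highest for 22 and WaGa for 14. Clustered members share constant exons or neighbouring promoters and are not independent of each other.

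Genes that act with cadherins were read from 6 lists. Among 12 cadherin partners, 1 was higher in the Merkel cell carcinoma lines than in REH (beside 1.09% of all genes), with a list median of 0.76 against 0.18 over all genes. It was CTNND1, p120-catenin, which holds classical cadherins at the membrane, at 100.2 TPM in MCC13, 70.1 TPM in WaGa, 94.1 TPM in MKL-2, 43.5 TPM in MKL-1 and 5.74 TPM in REH (difference 3.46 ± 0.55; limma, adjusted p = 0.0439). Against WaGa, MKL-1 and MKL-2, 1 partner was higher and 1 lower in MCC13 (beside 6.47% and 2.47% of all genes), with a list median of 0.37 against -0.30 over all genes. Vinculin, VCL, which links alpha-catenin to actin, stood at 325 TPM in MCC13, against 13.7, 22.9 and 18.4 TPM in WaGa, MKL-1 and MKL-2 (difference 4.10 ± 0.38; limma, adjusted p = 0.0191). CTNND2, delta-catenin of neurons, was listed at 0 in MCC13, against 19.7, 33.4 and 23.0 TPM in WaGa, MKL-1 and MKL-2 (difference -4.69 ± 0.47; limma, adjusted p = 0.0236).

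The EMT factors are regulators of the epithelial-mesenchymal transition or of epithelial splicing. Of 11 tested, 2 were higher and 1 was lower in MCC13, beside 6.47% and 2.47% of all genes. The list median was 1.0 against -0.30 over all genes. TWIST2, a helix-loop-helix factor, stood at 13.7 TPM in MCC13 and was listed at 0 in the other 4 lines (difference 3.87). KLF8, a repressor of CDH1, stood at 1.59 TPM in MCC13 and was listed at 0 in WaGa, MKL-1 and MKL-2 (difference 1.37). Both were tested only because MCC13 reached 1 TPM, so their calls are no support for a difference. ESRP1, the epithelial splicing regulator, was listed at 0 in MCC13, against 139, 214 and 146 TPM in WaGa, MKL-1 and MKL-2 (difference -7.36 ± 0.36; limma, adjusted p = 0.00855). CTNND2 and ESRP1 were at 0 in MCC13 and so entered the test through the other lines alone. None of the 11 passed against REH, where the list median was 0.94. The list holds a repressor of CDH1 and an epithelial splicing regulator alike, so neither median gives a direction of the transition.

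In the remaining lists few genes passed. Of 15 tested large atypical cadherins outside the family rule, 1 was lower in MCC13 (list median -0.93), beside 2.47% of all genes, and 0 passed against REH (list median 1.31). It was CELSR2, a planar polarity receptor, at 7.64 TPM in MCC13, against 63.0, 57.7 and 88.3 TPM in WaGa, MKL-1 and MKL-2 (difference -3.01 ± 0.35; limma, adjusted p = 0.0322). The tip-link partners of CDH23 had a list median of -3.14 over 6 tested genes in MCC13 against the other 3, with 0 called, and 1.93 over 7 tested genes against REH. TMIE alone was called there, at 0.113 TPM in MCC13, 0.0616 TPM in WaGa, 0.0243 TPM in MKL-1 and 1.66 TPM in REH and listed at 0 in MKL-2 (beside 4.15% lower of all genes). It was tested only because REH reached 1 TPM, where 49.6% of the 1552 such genes were called, so its call is no support for a difference. Of 5 tested sheddases 0 passed in either comparison, with list medians of 0.29 (MCC13) and 0.79 (REH). Of 11 cluster regulators 0 passed in either comparison, with list medians of -0.59 (MCC13) and -0.18 (REH). CTCF, the insulator protein that binds these promoters, was not called and stood at 49.2 TPM in MCC13, against 97.4, 131 and 115 TPM in WaGa, MKL-1 and MKL-2 and 122 TPM in REH.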

How the data were processed

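RNA of 5 cell lines (1 library each) had been enriched for mRNA with oligo-dT and made into directional libraries, per the labels' protocols. The authors deposited TPM values for 57905 genes, and the submitters' processing notes name SAMtools 0.1.19, StringTie 1.3.5, STAR 2.4.5b and bcl2fastq 2.20 and the builds hg19 and GRCh37, without roles. TPM keeps no depth, so the depth behind each value is unknown, and a gene at exactly 0 is described as listed at 0. A further column (1 in the deposited file) matched no sample and was not used.

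Members were matched by symbol, and 90 of 92 identifiers were found in GENCODE 29 (GRCh38), used for gene type, chromosome and transcript sequences. A gene was tested where some line of the comparison had 1 TPM or more, in R 4.3.3 with limma 3.58.1 on log2(TPM + 1) (variance trend, 2-sided, Benjamini-Hochberg over all genes tested, threshold 0.05). The fits had 3 residual degrees of freedom against REH and 2 among the Merkel cell carcinoma lines. The procedure was also run on simulated data, with each gene's spread capped at the median and changes planted in no low genes. That run does not show how the fits behave for low members or for genes with a wide spread. Counts and figures were made with Python 3.11.15, pandas 2.3.3 and matplotlib 3.10.9.

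The family, lists and tests were chosen with earlier results of these data known. The rule named members outside the clusters that reached 5 TPM or passed a fit, the 3 highest members of each cluster, C-type members at 1 TPM or more, and passing members of the clusters. From each list of other genes it named up to 4 that passed. Further members (among them PCDHGA10, PCDHGA11, PCDHGB4, PCDHGB6 and PCDHA13), CTCF and all markers were named after their values were seen. Of the 12 cluster regulators 11 were matched. Alternatives were a pseudocount of 0.1 TPM, no filter, a mean of 5 TPM, quantile normalization, a constant prior variance and leaving out each Merkel cell carcinoma line.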

Additional observations from a re-analysis of the deposited data

Results flagged for a closer look

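Among 47 values checked over the 4 Merkel cell carcinoma lines, covering 37 members and summed levels, 8 stood apart. For these the gap from 1 line to the nearest of the other 3 was above Dixon's critical share of the range of the 4. Gap and range were taken on the scale log2(TPM + 1), whereas the levels below are given in TPM. For values not chosen beforehand chance gives about 1 such value in 20, and many of the members lie in shared clusters. The members checked were chosen by level or by a call in these same data. PCDHGA3 was included only by its call for MCC13, and CDH6 and CDH13 reached 5 TPM in MCC13 alone. The flags are therefore no support for a difference, and their number cannot be set against chance. In 7 of the 8 the line was MCC13. CDH13 was at 74.3 TPM in MCC13, against 0.226 to 1.16 TPM in the other 3. CDH6 was at 7.12 TPM in MCC13 and listed at 0 in the other 3, PCDHGA3 at 3.03 TPM in MCC13, against 0.219 to 0.252 TPM, and PCDH18 at 1.82 TPM in MCC13, against 0 to 0.0302 TPM. CDH1 was at 0.134 TPM in MCC13, against 7.96 to 10.9 TPM, CDH12 at 0.0763 TPM in MCC13, against 5.37 to 7.15 TPM, and PCDHAC1 at 0.227 TPM in MCC13, against 1.77 to 1.94 TPM. PCDHGC3 was the exception, at 0.274 TPM in MKL-2, against 16.1 to 22.3 TPM in the other 3.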

How the results depend on the processing

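Members higher in the Merkel cell carcinoma lines than in REH numbered 1, and 0 to 8 when a line was left out. Members lower numbered 1, and 0 to 1 when a line was left out, 0 with a pseudocount of 0.1 TPM, 0 among genes averaging 5 TPM or more and 0 with a constant prior variance. Members higher in MCC13 numbered 4, and 0 without WaGa, without MKL-1 or without MKL-2 and 1 among genes averaging 5 TPM or more, where 3 of the 7 called members were tested. Members lower in MCC13 numbered 3, and 0 when a line was left out and 7 with a pseudocount of 0.1 TPM, which added CDH23, PCDHA2, PCDHA3 and PCDHB10 and lost CDH13 among the higher ones. For MKL-2 the 0 higher became 2 without a filter (PCDH20 and PCDHB6). CDH24 against REH ranged from -0.52 to 0.65 with a line left out and reversed without MCC13. Of the 7 calls for MCC13, CDH3 was lost without a filter (limma, adjusted p = 0.0571) and PCDH18 with a constant prior variance (limma, adjusted p = 0.0555), and quantile normalization kept all 7 and both calls against REH. Members at 5 TPM or more numbered 10 in MCC13, 23 in WaGa, 20 in MKL-1, 23 in MKL-2 and 6 in REH. Of the differences of named members, 192 kept direction and call under the other settings, 5 passed newly and 6 no longer passed. With a line left out 108 were kept, 4 passed newly, 27 no longer passed and 1 reversed. A left-out line leaves fewer samples in the fit, and the cause of the other changes was not tested. No paired analysis was possible because each line had 1 library and the groups share fewer than 2 replicate numbers. Depth is unknown, so the counting error of low values cannot be given here.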
